A study of Mus musculus with 6 samples.

Results

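Chromatin remodellers, histone modifiers and transcriptional coregulators accounted for 81 of the 2652 genes (3.05%) in a table of genes recovered with METTL3 from natural killer (NK) cells. They were chosen by gene symbol alone, with a fixed pattern of name stems such as Chd, Kmt, Kdm, Setd, Arid, Smarc, Hdac, Tet, Dnmt, Ncoa and Med. Of the 81 members, 79 were protein-coding, Kdm6bos was an antisense transcript of Kdm6b and Dnmt3l-ps1 was a processed pseudogene. NK cells were sorted from the spleens of wild-type C57BL/6 mice that had received a plasmid expressing IL-15, so they were cells expanded in vivo under high IL-15. A lysate was divided into a part kept as input and a part incubated with an anti-METTL3 antibody, and the RNA of each was sequenced. There were 3 METTL3-RIP (RNA immunoprecipitation) libraries and 3 input libraries, and all were of wild-type genotype and from mice given the plasmid. A mock immunoprecipitation and METTL3-deficient cells were not analysed here, so RNA that the antibody or the beads hold without METTL3 cannot be told apart from RNA held by METTL3.

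METTL3 is the enzyme of the nuclear complex that methylates adenosine in nascent mRNA to N6-methyladenosine (m6A), preferentially at the adenosine of GGACT and related motifs, in long internal exons and near stop codons. The proteins described here work on the other side of gene regulation, on chromatin. Remodelling ATPases slide or evict nucleosomes, methyltransferases and acetyltransferases write marks on histone tails, demethylases and deacetylases remove them, and Mediator connects transcription factors with RNA polymerase II. Most act as large subunits of multiprotein complexes, and many are encoded by very long mRNAs.

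Values were reads scaled by exon length and library size (RPKM), a unit inferred from the numbers themselves. Library totals recovered from the values were 9401509 to 11809744 reads in METTL3-RIP and 14710607 to 15992386 reads in input. Every gene of the table had been chosen for being higher in METTL3-RIP, so the direction of that difference is no finding. None of 10 NK cell markers, and none of 28 markers of NK, T, B, myeloid and erythroid cells, was in the table, so cell identity could not be checked from it. The origin of the replicates was not stated, and p-values measure the spread between these libraries, which may be technical.

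All 81 chromatin genes were higher in METTL3-RIP than in input in the limma test on log2(RPKM + 1), beside 99.9% of all listed genes. In all 81, each METTL3-RIP value lay above each input value, as in 99.8% of the table. The share of calls is therefore that of the table, and nothing is read from it. The members differed from the table in abundance, among other traits described below. The median member had a mean METTL3-RIP level of 10.3 RPKM against 3.04 RPKM for the table, and a mean input level of 0.703 RPKM against 0.190. In bulk RNA, fewer cells that express a gene and less RNA per cell cannot be told apart. Levels of at least 10 RPKM in METTL3-RIP were reached by 41 members (50.6%) and by 20.1% of all listed genes. Replicates were close, with a median coefficient of variation of 9.91% for members in METTL3-RIP and 19.7% in input. The members together held 1.42% ± 0.110 of the METTL3-RIP library reads and 0.0915% ± 0.0121 of the input library reads (± is SD of 3 libraries throughout). Among the reads of listed genes alone, their share was 9.90% ± 0.0190 in METTL3-RIP and 9.61% ± 0.0696 in input. The 5 members with most reads were Chd4, Kmt2d, Kat6a, Arid1a and Bptf, which held 26.5% of all METTL3-RIP reads of the members.

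**Figure D1:**
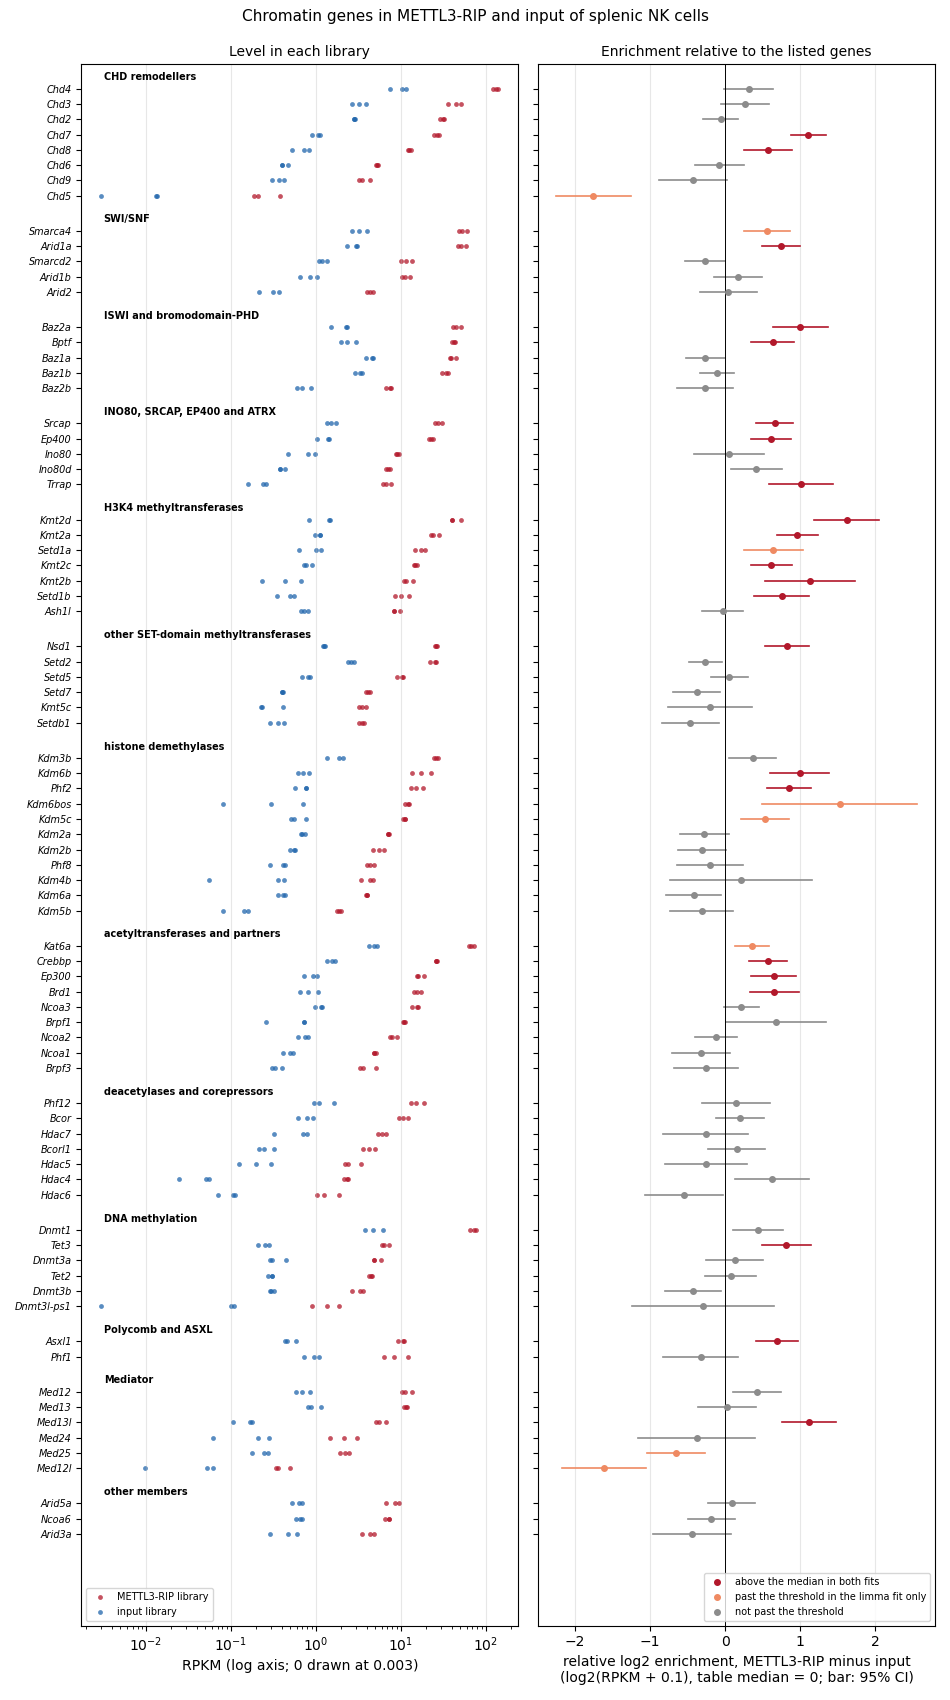
Left, RPKM of the chromatin genes described in the text (rows, by class) in the 3 METTL3-RIP libraries (red points) and the 3 input libraries (blue points), on a log axis. Right, relative log2 enrichment with its 95% confidence interval, where 0 is the difference between the library medians of the listed genes. Input values of 0 are drawn at 0.003 RPKM. Red and blue points do not overlap in any row, and the 22 dark red intervals mark genes above the median in both fits.

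Whether a member was recovered with METTL3 more or less than a typical listed gene was asked with a relative enrichment. It is the difference of log2(RPKM + 0.1) between METTL3-RIP and input after the median of all listed genes was set to 0 in each library. The 0 is thus the difference of library medians, and the median listed gene itself stood at -0.21. Above and below the median refer to this 0. In the count-based fit described next they refer to the 0 of its own library scaling. There the median listed gene stood at 0.14 and the median member at 0.099. In limma, at a Benjamini-Hochberg threshold of 0.05 across the listed genes, 27 members were above the median, beside 11.2% of the table, and 3 were below, beside 19.9%. A count-based fit, limma-voom on the recovered reads, called 23 above, beside 9.85%, and 4 below, beside 2.64%. Both fits called 22 members above (27.2%), beside 6.9% of the table, and 0 below, beside 0.113%. These fits share the same values and are not independent. The limma count moved with the pseudocount, from 62 above and 6 below at 1 to 9 above and 5 below at 0.02. At 0.02 the median relative log2 enrichment was -0.11 for the members and -0.17 for all listed genes, in place of 0.15 and -0.21. In the first fit, 472 of the 528 genes called below in the table had under 50 input reads, as had 2 of the 3 members called below. Among genes with at least 50 input reads, both fits called 22 of 75 members above (29.3%), beside 9.15% of 1213 listed genes, and 0 below, beside 0.247%. These members still had more reads, with a median of 313 input reads against 159, and a higher METTL3-RIP level, 10.8 against 6.68 RPKM. The part of depth and level in the calls was not tested. In this subset limma alone called 26 members above, beside 14.8%, and 1 below, beside 4.62%, and voom alone called 22 above, beside 9.65%, and 4 below, beside 5.77%. The median ratio of mean RPKM, METTL3-RIP to input, was 14.1 in these members and 12.2 in these listed genes. Ratios of at least 20 were found in 13 of the 75 members (17.3%) and in 10.1% of the table, and ratios under 10 in 12% and 15.9%. Without the restriction on reads the median ratios were both 14.4. No listed gene had a ratio under 9.14. Genes recovered less than that are absent, so ratios and calls on the low side are limited by how the table was chosen.

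**Figure D2:**
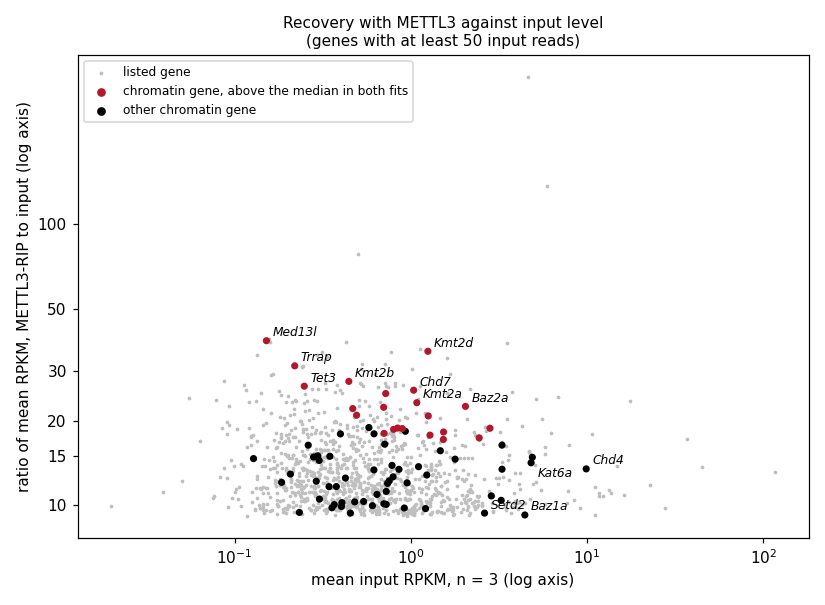
Ratio of mean RPKM in METTL3-RIP to input against mean input RPKM (both axes log, n = 3 per group) for the 1213 listed genes with at least 50 input reads. The 22 chromatin genes above the median in both fits (red) reach from 17.1 for Crebbp to 38.4 for Med13l and lie at input levels from 0.152 RPKM for Med13l to 2.81 RPKM for Arid1a.

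The H3K4 methyltransferases had the highest median ratio of the classes. They methylate histone H3 at promoters and enhancers, and 7 of the 8 annotated genes of the class were listed, all but Kmt2e. The median ratio was 22.1, and 5 of the 7 (Kmt2a, Kmt2b, Kmt2c, Kmt2d and Setd1b) were above the median in both fits. Kmt2d, an enhancer-associated methyltransferase with the longest coding sequence of the members (16764 nt), lies at chr15:98831669-98871204 on the minus strand (GRCm38). Its RPKM was 40.5, 51.2 and 40.4 in METTL3-RIP replicates 1 to 3 and 1.44, 1.48 and 0.827 in input. The METTL3-RIP values lay far above all input values, and the third input library was the lowest. The ratio of means was 35.2, and the relative log2 enrichment of 1.62 (SE 0.18, limma adjusted p = 0.0012) was the largest of the members with at least 50 input reads. Its close paralogue Kmt2c had 14.7, 15.4 and 14.4 RPKM in METTL3-RIP and 0.764, 0.894 and 0.737 RPKM in input. The groups were far apart with little spread in each, and the relative log2 enrichment was 0.62 (SE 0.12, limma adjusted p = 0.0086).

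Kmt2a and Kmt2b, paralogous methyltransferases that work with menin, also stood above the median. Kmt2a had 22.8, 28 and 24.3 RPKM in METTL3-RIP and 1.12, 1.14 and 0.987 RPKM in input. The input values were nearly equal, and the relative log2 enrichment was 0.96 (SE 0.12, limma adjusted p = 0.0016). Kmt2b had 11, 14 and 11.7 RPKM in METTL3-RIP and 0.671, 0.430 and 0.234 RPKM in input. Its input libraries differed proportionally more than its METTL3-RIP libraries, the relative log2 enrichment was 1.13 (SE 0.25, limma adjusted p = 0.016), and without METTL3-RIP replicate 2 or 3 the adjusted p was 0.058 or 0.056. Setd1a and Setd1b, catalytic subunits of the COMPASS promoter complexes, had ratios of 18.3 and 22.1. Setd1b was above the median in both fits, and Setd1a in limma (adjusted p = 0.027) with a voom adjusted p of 0.090. Exons of other annotated genes on the same strand covered 51.8% of the exonic length of Setd1a, so its level is uncertain. Ash1l, placed in the class by the naming scheme and better known as an H3K36 methyltransferase, had the lowest ratio of the class, 12, and a relative log2 enrichment of -0.03 (SE 0.12, limma adjusted p = 0.84).

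The letters GGACT were searched on the transcript strand of the longest annotated transcript of each gene. For the 4 listed Kmt2 paralogues, all called by both fits, the copy nearest to the stop codon that lies with 10 bases on each side within an exon is shown, as a view of the sequence METTL3 is known to favour. Capitals mark GGACT. The windows, at chr9:44807827-44807851 for Kmt2a, chr7:30574581-30574605 for Kmt2b, chr5:25284578-25284602 for Kmt2c and chr15:98834189-98834213 for Kmt2d, all lie on the minus strand of GRCm38.
Kmt2a: ccatgctgaaGGACTtcccagcacc
Kmt2b: cccacctcctGGACTctgcccccag
Kmt2c: gctgaggagaGGACTacaaatgaag
Kmt2d: atatgggccgGGACTacccagaagt
Those of Kmt2a and Kmt2d were in the 3′ UTR, with the adenosine 65 and 301 nt from the stop codon, and those of Kmt2b and Kmt2c were in coding sequence, 1452 and 1363 nt from it. The 4 transcripts held 19, 18, 11 and 17 copies. A match is a description of the letters and not a measured site, and 87.7% of all protein-coding genes held at least 1 copy in their longest transcript.

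Among the CHD remodellers, ATPases with chromodomains, 8 of 10 annotated genes were listed, all but Chd1 and Chd1l. Chd4, the ATPase of the NuRD repressor complex, was the most abundant member of all. It had 134, 141 and 124 RPKM in METTL3-RIP and 11.6, 10.5 and 7.5 RPKM in input. Its log2 fold change on the log2(RPKM + 1) scale was 3.64 (SE 0.19, limma adjusted p = 3.2e-07). Its ratio of 13.5 was near the median of the table, and the relative log2 enrichment was 0.31 (SE 0.14, limma adjusted p = 0.13). Chd3, another NuRD ATPase, had a nearly equal ratio of 13.4 at a lower level of 44.2 ± 7.87 RPKM.

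Chd7, a remodeller bound at enhancers, showed a different balance. It had 26.6, 28.6 and 24.6 RPKM in METTL3-RIP and 1.06, 1.14 and 0.917 RPKM in input. Every METTL3-RIP library was far above every input library, the ratio was 25.6, and the relative log2 enrichment was 1.11 (SE 0.10, limma adjusted p = 5.6e-04). Chd8, of the same subfamily, was also above the median in both fits, with 12.7 ± 0.405 RPKM in METTL3-RIP and a relative log2 enrichment of 0.56 (SE 0.14, limma adjusted p = 0.020). Chd2 had a ratio of 10.8 and was below only in voom, by 0.32 on the log2 scale (adjusted p = 0.024). Exons of other annotated genes on the same strand covered 18.4% of the exonic length of Chd2, so its level is uncertain. Chd6 had 5.31 ± 0.129 RPKM and a ratio of 12.5, and passed neither test. Chd9 had a ratio of 10.04 and a relative log2 enrichment of -0.43 (SE 0.19, limma adjusted p = 0.13). Chd5, a CHD gene best known from neurons, had 0.189, 0.380 and 0.212 RPKM in METTL3-RIP and 0.0137, 0.0131 and 0 RPKM in input. With 4 input reads in all, its limma call below the median (-1.75, SE 0.21, adjusted p = 0.0016) was not made by voom (0.92, SE 0.58, adjusted p = 0.34), and the estimates had opposite signs.

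Of the SWI/SNF class, which moves nucleosomes at enhancers, 5 of 19 genes were listed. Smarca4, its ATPase also known as BRG1, had 53.1, 59.8 and 48.4 RPKM in METTL3-RIP and 4.03, 3.20 and 2.65 RPKM in input. The relative log2 enrichment was 0.56 (SE 0.13, limma adjusted p = 0.018), while voom gave an adjusted p of 0.075. Arid1a, the large DNA-binding subunit, had a similar level of 52.8 ± 5.98 RPKM against 2.81 ± 0.410 RPKM in input and was above the median in both fits (relative log2 enrichment 0.74, SE 0.11, limma adjusted p = 0.0032). Its paralogue Arid1b had a ratio of 13.4 where Arid1a had 18.8, with a relative log2 enrichment of 0.17 (SE 0.14, limma adjusted p = 0.37). Arid2 of the related PBAF complex and Smarcd2, a small accessory subunit, had ratios of 14.4 and 9.73, and neither passed a test. The difference between Arid1a and Arid1b was not tested.

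All 5 annotated genes of the ISWI partner class, the Baz genes and Bptf, were listed, and they split. Baz2a, which targets ribosomal DNA for silencing, had 41.3, 51.5 and 44.7 RPKM in METTL3-RIP and 2.31, 2.32 and 1.5 RPKM in input. Its ratio was 22.5, and the relative log2 enrichment was 1 (SE 0.16, limma adjusted p = 0.0040). Bptf, the largest NURF subunit, was above as well, with 42.4 ± 1.92 RPKM and a relative log2 enrichment of 0.63 (SE 0.12, limma adjusted p = 0.0087). Baz1a, the ACF1 subunit of ISWI complexes, had almost the same METTL3-RIP level, with 44.7, 38.5 and 39.6 RPKM, but a higher input of 4.79, 4.60 and 3.91 RPKM. Its ratio of 9.23 was the lowest of all members and close to 9.14, the lowest of any listed gene. Baz1a was below only in voom, by 0.55 on the log2 scale (adjusted p = 0.0074). Exonic 31-mers of Baz1a that recur elsewhere in the genome made up 15.3%, so its reads are less certain. Baz1b, the Williams syndrome transcription factor, had a ratio of 10.4 and was also below only in voom, by 0.37 (adjusted p = 0.012). Baz2b, the paralogue of Baz2a, had 7.3 ± 0.55 RPKM and a ratio of 10.1, and passed neither test.

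In the class of INO80, SRCAP and EP400 complexes, which exchange histone variants, 5 of 10 genes were listed and 3 were above the median in both fits. Trrap, a giant scaffold shared by acetyltransferase complexes, had 6.70, 7.62 and 6.28 RPKM in METTL3-RIP and 0.258, 0.159 and 0.241 RPKM in input. The ratio was 31.3, and the relative log2 enrichment was 1.01 (SE 0.18, limma adjusted p = 0.0065). Ep400, an ATPase that works in a complex with Trrap, had 22.8 ± 1.44 RPKM and a relative log2 enrichment of 0.61 (SE 0.11, limma adjusted p = 0.0076). Srcap, an ATPase that deposits H2A.Z, had 27.9 ± 2.72 RPKM and a relative log2 enrichment of 0.66 (SE 0.10, limma adjusted p = 0.0040), although exons of other annotated genes on its strand covered 61.7% of its exonic length. Ino80 itself had a ratio of 12.2 and a relative log2 enrichment of 0.05 (SE 0.20, limma adjusted p = 0.86), and its partner subunit Ino80d had a ratio of 17.9 with a limma adjusted p of 0.068.

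Windows are shown for Chd7 (chr4:8866594-8866618) and Trrap (chr5:144859193-144859217) on the plus strand, which had high ratios. Another is shown for Baz1a (chr12:54894362-54894386) on the minus strand, which had the lowest ratio of all members. Capitals again mark the GGACT nearest to the stop codon.
Chd7: gtgaagagctGGACTccctcgaagg
Trrap: ccctgaactgGGACTccctgtgtac
Baz1a: tcaaaagcttGGACTccacgtctca
The adenosine lay 47 nt from the stop codon in Chd7 and 67 nt in Baz1a, both in coding sequence, and 249 nt from it in Trrap, in the 3′ UTR. The transcripts of Chd7 (10216 nt) and Trrap (12479 nt) held 14 copies each and that of Baz1a (6188 nt) held 4. Across the 75 members with at least 50 input reads, Spearman's rho of the ratio with GGACT density was -0.0015.

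**Figure D3:**
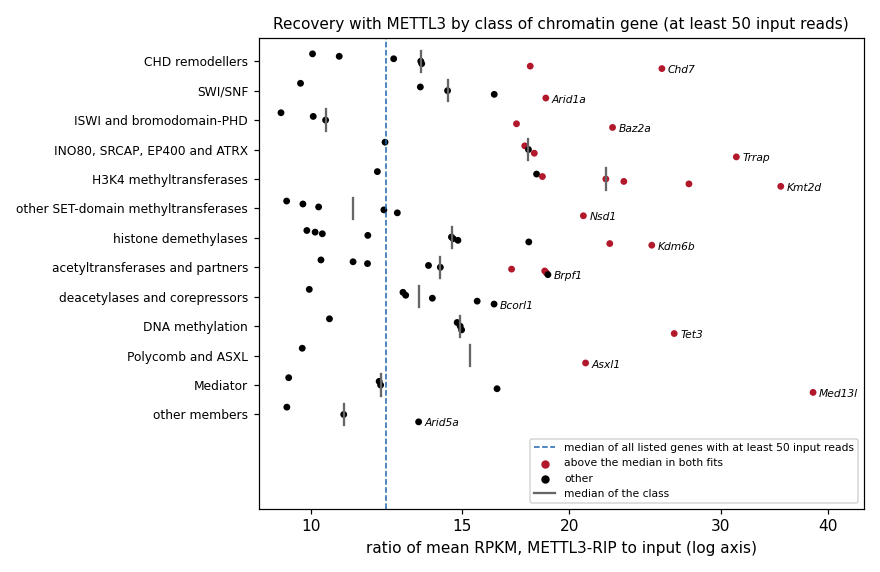
Ratio of mean RPKM in METTL3-RIP to input (log axis) for the 75 members with at least 50 input reads, by class. Grey bars are class medians, the dashed line is the median of all listed genes with at least 50 input reads (12.2), and red points were above the median in both fits. The H3K4 methyltransferases have the highest class median, 22.1, and 5 of their 7 points are red.

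Of the remaining SET-domain methyltransferases, 6 of 14 genes were listed and only Nsd1 was above the median. Nsd1, which dimethylates H3K36, had 25.5, 26.5 and 26.2 RPKM in METTL3-RIP and 1.22, 1.25 and 1.3 RPKM in input. The libraries of each group were nearly identical, the ratio was 20.8, and the relative log2 enrichment was 0.83 (SE 0.12, limma adjusted p = 0.0035). Setd2, which adds the third methyl group to the same lysine, had a similar METTL3-RIP level of 26.3, 25.1 and 22.2 RPKM. Its input of 2.83, 2.63 and 2.4 RPKM was higher than that of Nsd1 in every library, its ratio was 9.37, and it was below only in voom, by 0.53 on the log2 scale (adjusted p = 0.0026). Setd5, Setd7, Kmt5c and Setdb1 had ratios from 9.79 to 12.6, and none passed a test. Setdb1, an H3K9 methyltransferase, had a relative log2 enrichment of -0.46 (SE 0.16, limma adjusted p = 0.069), with 13.3% of its exonic 31-mers found elsewhere in the genome.

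Histone demethylases, which erase methyl marks, were listed for 10 of 20 protein-coding genes, and Kdm6b and Phf2 were above the median in both fits. Kdm6b, an H3K27 demethylase induced in activated immune cells, had 17.2, 23.0 and 13.6 RPKM in METTL3-RIP and 0.708, 0.836 and 0.616 RPKM in input. Its METTL3-RIP libraries varied more than those of most members, but all lay far above input, and the relative log2 enrichment was 0.99 (SE 0.17, limma adjusted p = 0.0054). Kdm6a, its X-linked paralogue, had 3.87, 4.05 and 4.06 RPKM against 0.435, 0.36 and 0.417 RPKM in input. Its ratio of 9.89 contrasted with 24.9 for Kdm6b, and its relative log2 enrichment was -0.42 (SE 0.15, limma adjusted p = 0.079), but the difference between the paralogues was not tested. Kdm6bos, the antisense transcript, had 12 ± 0.654 RPKM in METTL3-RIP with 14 input reads in all, and was above the median in limma (adjusted p = 0.036) with a voom adjusted p of 0.065. It shared 34.0% of its exonic length with Kdm6b on the other strand, and although the libraries were stranded, the strand setting used in counting is not given, so whether their reads were separated is unknown.

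Phf2, a demethylase of the PHF family, had 15.3, 18.3 and 13.3 RPKM in METTL3-RIP and 0.774, 0.761 and 0.569 RPKM in input, with a relative log2 enrichment of 0.85 (SE 0.13, limma adjusted p = 0.0034). Kdm5c, an X-linked H3K4 demethylase, was above in limma (0.53, SE 0.14, adjusted p = 0.025) with a voom adjusted p of 0.13. Kdm3b, an H3K9 demethylase, was the most abundant of the class at 26.0 ± 1.40 RPKM. Its ratio was 14.6, and the relative log2 enrichment was 0.37 (SE 0.13, limma adjusted p = 0.073), and 24.6% of its exonic length was shared with a gene on the other strand, which leaves its level uncertain. Kdm2a, Kdm2b, Kdm4b, Kdm5b and Phf8 had ratios from 10.1 to 14.8, and none passed a test. In Kdm2b 14.95% of the exonic 31-mers recurred elsewhere, so its reads are less certain. Kdm4b had 0.429, 0.358 and 0.0555 RPKM in input, where the third library stood far below the others.

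Acetyltransferases and the proteins that work with them were listed for 9 of 16 genes. Kat6a, the catalytic subunit of the MOZ complex, was the most abundant, with 68.1, 72.5 and 63.7 RPKM in METTL3-RIP and 5.31, 4.82 and 4.30 RPKM in input. Its relative log2 enrichment was 0.35 (SE 0.10, limma adjusted p = 0.031), and voom gave 0.07 (SE 0.07, adjusted p = 0.55). Crebbp and Ep300, paralogous coactivators that acetylate H3K27 at enhancers, were above the median in both fits. Crebbp had 25.9, 26.7 and 25.9 RPKM in METTL3-RIP and 1.55, 1.69 and 1.35 RPKM in input. Ep300 had 15.9, 18.7 and 15.7 RPKM in METTL3-RIP and 0.929, 1.03 and 0.724 RPKM in input. Crebbp was the more abundant in both groups, and the relative log2 enrichments were close, 0.57 (SE 0.11, limma adjusted p = 0.0085) for Crebbp and 0.64 (SE 0.13, limma adjusted p = 0.0094) for Ep300.

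Brd1, Brpf1 and Brpf3, scaffold subunits of acetyltransferase complexes, had METTL3-RIP levels of 15.8 ± 1.57, 10.9 ± 0.284 and 4 ± 0.964 RPKM. Brd1 was above the median in both fits (relative log2 enrichment 0.65, SE 0.14, limma adjusted p = 0.014). Brpf1 had a ratio of 18.9 close to the 18.8 of Brd1, but its input values were 0.736, 0.738 and 0.261 RPKM, and neither fit called it (limma adjusted p = 0.11). The steroid receptor coactivators Ncoa1, Ncoa2 and Ncoa3 had ratios of 10.3, 11.2 and 13.7, and none passed a test.

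Deacetylases and corepressors were listed for 8 of 21 genes. Of the 8, 0 were above the median in both fits, beside 6.9% of the table, so nothing is read from this count. The listed deacetylases were Hdac4, Hdac5, Hdac7 and Hdac6. The first 3 are class IIa enzymes, which are regulated by export from the nucleus, and Hdac6 is a mainly cytoplasmic tubulin deacetylase. The class I enzymes Hdac1, Hdac2, Hdac3 and Hdac8 were not among the listed genes. Hdac4 had 2.18, 2.31 and 2.42 RPKM in METTL3-RIP and 0.0249, 0.0554 and 0.0516 RPKM in input. Its ratio of 52.4 was the highest of all members but rested on 32 input reads. It was above in voom (2, SE 0.43, adjusted p = 0.011) and had a limma adjusted p of 0.062, and 22.4% of its exonic length was shared with a gene on the other strand, so its level is uncertain. Bcor and Bcorl1, corepressors that join a variant Polycomb complex, had ratios of 13.8 and 16.3, and neither passed a test. Phf12, a SIN3-associated protein, Hdac5, Hdac6 and Hdac7 had ratios of 12.8, 12.9, 14.4 and 9.96, and none passed a test. Phf12 shared 10.8% of its exonic length with a gene on the other strand and is uncertain.

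Of the DNA methylation genes, 5 of 8 protein-coding genes were listed. Dnmt1, the maintenance methyltransferase that copies methylation after replication, had 78.2, 74.0 and 65.0 RPKM in METTL3-RIP and 6.12, 4.71 and 3.83 RPKM in input. Only Chd4 had a higher METTL3-RIP level among the members, and the relative log2 enrichment was 0.44 (SE 0.14, limma adjusted p = 0.053). Tet3, an enzyme that oxidises 5-methylcytosine, had 6.01, 7.39 and 6.36 RPKM in METTL3-RIP and 0.279, 0.255 and 0.212 RPKM in input. The groups lay far apart, the ratio was 26.5, and the relative log2 enrichment was 0.82 (SE 0.14, limma adjusted p = 0.0059). Tet2, its paralogue, had 4.43 ± 0.156 RPKM against 0.296 ± 0.0188 RPKM, with a ratio of 15 and a relative log2 enrichment of 0.07 (SE 0.15, limma adjusted p = 0.71). The de novo methyltransferases Dnmt3a and Dnmt3b had ratios of 14.9 and 10.5. Dnmt3b had a relative log2 enrichment of -0.43 (SE 0.16, limma adjusted p = 0.080), and 13.2% of its exonic 31-mers recurred elsewhere. The pseudogene Dnmt3l-ps1 had 1.87, 0.913 and 1.35 RPKM in METTL3-RIP with 4 input reads in all, and passed neither test of relative enrichment.

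Of the Polycomb and ASXL class, 2 of 7 genes were listed. Asxl1, a cofactor of the BAP1 deubiquitinase, had 10.5, 11.1 and 9.27 RPKM in METTL3-RIP and 0.584, 0.455 and 0.439 RPKM in input. It was above the median in both fits, with a relative log2 enrichment of 0.69 (SE 0.12, limma adjusted p = 0.0063), and 12.5% of its exonic 31-mers recurred elsewhere. Phf1, an accessory subunit of Polycomb repressive complex 2, had 8.28, 12.3 and 6.31 RPKM in METTL3-RIP and was the most variable member above the table median. Its relative log2 enrichment was -0.33 (SE 0.21, limma adjusted p = 0.26), and 39.3% of its exonic length was shared with genes on the other strand. The catalytic subunits Ezh1 and Ezh2 were not among the listed genes.

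Mediator was represented mostly by its kinase module, the part that docks reversibly on the core complex. All 4 genes of that module that the rule covers, Med12, Med12l, Med13 and Med13l, were listed, against 2 of 26 other subunits, Med24 and Med25. The module genes were also longer, with a median exonic length of 11801.5 nt against 3436.5 nt. Med13l had 5.58, 6.71 and 5.19 RPKM in METTL3-RIP and 0.179, 0.170 and 0.106 RPKM in input. Its ratio of 38.4 was the highest of members with at least 50 input reads, and the relative log2 enrichment was 1.12 (SE 0.15, limma adjusted p = 0.0028). Med13, its paralogue, had higher METTL3-RIP levels of 10.9, 11.6 and 11.8 RPKM, but a higher input of 0.812, 1.15 and 0.890 RPKM. Its ratio was 12, and the relative log2 enrichment was 0.02 (SE 0.16, limma adjusted p = 0.92).

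Med12 had 11.7 ± 1.65 RPKM in METTL3-RIP, a ratio of 16.5 and a relative log2 enrichment of 0.43 (SE 0.14, limma adjusted p = 0.051). Its paralogue Med12l was near the lower end of the members, with 0.402 ± 0.0853 RPKM and 24 input reads, and its limma call below the median (-1.61, SE 0.24, adjusted p = 0.0034) was not made by voom (adjusted p = 0.82). Its level is also uncertain, since 17.3% of its exonic length was shared with genes on the other strand. Med25, a tail subunit that binds activators, had 2.45, 2.2 and 1.94 RPKM in METTL3-RIP and 0.275, 0.246 and 0.178 RPKM in input. It was the only member with at least 50 input reads below the median in limma (-0.65, SE 0.16, adjusted p = 0.023), and voom gave -0.54 (SE 0.25, adjusted p = 0.18). Med24, another tail subunit, had 3.03, 2.17 and 1.49 RPKM in METTL3-RIP, a ratio of 12.1 and 56 input reads, and passed neither test. The windows of Med13l (chr5:118761359-118761383, plus strand) and Tet3 (chr6:83368945-83368969, minus strand) are shown because these genes had high ratios at low input.
Med13l: cacaccctctGGACTccaagaccac
Tet3: aagccagtggGGACTgttcactggt
Both lie in coding sequence, with the adenosine 158 and 913 nt from the stop codon, and the transcripts held 13 and 10 copies of GGACT.

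The 3 remaining members were Arid5a, an RNA-binding protein that stabilises inflammatory mRNAs, Arid3a, a DNA-binding transcription factor, and Ncoa6, a nuclear receptor coactivator. Their ratios were 13.3, 9.38 and 10.9, and none passed a test of relative enrichment. Arid5a had a relative log2 enrichment of 0.09 (SE 0.13, limma adjusted p = 0.64) and Arid3a of -0.44 (SE 0.22, limma adjusted p = 0.16).

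Coverage of the family by the table was described against the GENCODE M21 annotation. Of 211 annotated genes that match the name pattern, 81 (38.4%) were listed. Among protein-coding genes the share was 79 of 196 (40.3%, exact 95% binomial interval 33.4 to 47.5), beside 8.67% of all 21951 protein-coding genes. Listed genes of the family were long, with a median exonic length of 10730 nt against 5379 nt for family genes outside the table and 3498 nt for all protein-coding genes. Shares were therefore compared within 5 classes of length. The longest class runs from 6513 to 123179 nt, so length is not held within it. In the longest class, 69 of 117 family genes (59.0%) were listed, beside 22.4% of other protein-coding genes. In the next class the shares were 7 of 35 (20%) and 11.9%, and in the middle class 3 of 26 (11.5%) and 5.04%. In the shortest classes none of 7 and none of 11 family genes was listed, beside 1.09% and 1.83% of other genes, and the exact 95% intervals allow shares of up to 41.0% and 28.5%. At the length-class shares of other genes, 16.3% of the family would be listed. Expression in NK cells of genes outside the table was not analysed here, and its part in the share was not tested.

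**Figure D4:**
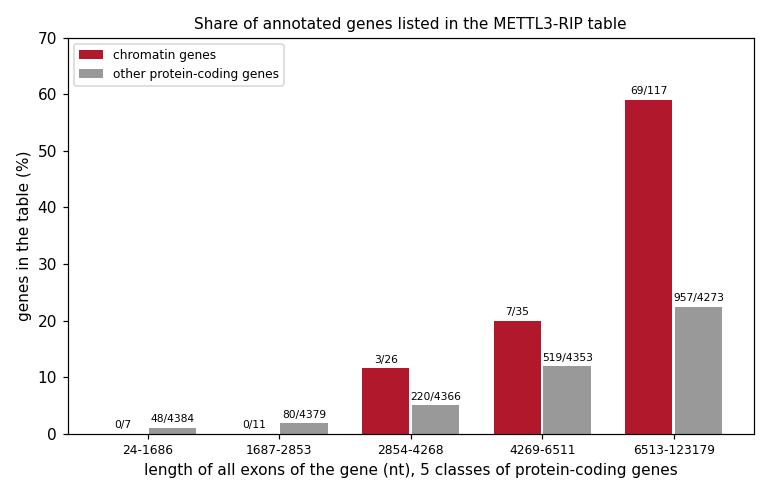
Percentage of annotated protein-coding genes that are in the table, by class of exonic length (5 classes, nt), for chromatin genes (red) and all other protein-coding genes (grey). Numbers above the bars give listed and annotated genes, and the share rises from 0 of 7 to 69 of 117 for chromatin genes.

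Transcript features were compared over the longest annotated transcript of each gene, without a test. The median coding sequence was 5004 nt in listed members, 1833 nt in family genes outside the table, 2580 nt in other listed genes and 1119 nt in all protein-coding genes. The longest coding exon had a median of 869 nt, 294 nt, 459 nt and 322 nt in the same sets. The density of GGACT differed little, with medians of 1.1, 0.944, 1.13 and 1.01 per 1000 nt. Every one of the 79 coding members held GGACT, as did 94.9% of family genes outside the table. A copy within 200 nt of the stop codon was present in 39.7% of members, in 44% of family genes outside the table, in 41.6% of other listed genes and in 38.7% of all protein-coding genes.

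Within the members, the ratio of METTL3-RIP to input went with coding length. Across 75 genes with at least 50 input reads, Spearman's rho was 0.48 and Pearson's r 0.53 with coding length, and rho was 0.27 with exonic length, 0.35 with the longest coding exon, 0.25 with GC content, 0.054 with input level and -0.0015 with GGACT density. For 1131 listed genes the rho with coding length was 0.39 and the r 0.26. These are descriptions across genes that share libraries and an annotation, and genes are not independent replicates. The 22 members above the median in both fits had a median coding length of 7534.5 nt (3288 to 16764), and the other 53 had 4437 nt. Their transcripts held a median of 13 and 7 copies of GGACT at nearly equal densities of 1.14 and 1.1 per 1000 nt.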

How the data were processed

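METTL3-RIP and input libraries of splenic NK cells (3 each, grouped by title) were analysed. The authors mapped reads to GRCm38 with STAR 2.5.3a at default parameters, and the submitters' processing notes also name Trimmomatic 0.36, bedtools 2.25.0, deepTools 2.4.1 and HOMER 4.10. The libraries were stranded, but the counter, its strand option and the annotation are not given in the sources used here. The authors deposited a table with 1 value per gene and library. Its unit was inferred as RPKM, since with GENCODE M21 exon lengths 83.4% to 84.8% of the deposited values above 0 per library were whole reads within 0.02 of a read. Whole reads with the M21 length were obtained in 2147 of 2652 genes and 67 of 81 members, the length was inferred from the values in 504 genes (14 members), and 1 gene gave none. Whether reads or read pairs were counted is not stated. The deposited log2 fold changes and p-values of the authors' own comparison were not used. All 2652 genes had a deposited log2 fold change of at least 1 and a p-value under 0.05, so the table holds a selection and adjusted p-values refer to listed genes only.

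METTL3-RIP was compared with input by limma 3.58.1 in R 4.3.3 (lmFit and eBayes with trend, two-sided, Benjamini-Hochberg over all listed genes, threshold 0.05) on log2(RPKM + 1), which understates the change of low genes. Relative enrichment used log2(RPKM + 0.1) centred on each library's median, with voom and TMM scaling on recovered reads as an alternative. Scripts were tested on simulated data, where the limma fit of relative enrichment called genes by level, more than voom did. With 3 libraries against 3, an exact two-sided permutation test cannot go below 0.1 and was not used. Members were given in full when they had the highest METTL3-RIP level of a class, the 5 largest or 5 smallest relative enrichments with at least 50 input reads, or the 3 highest coefficients of variation at or above the table's median level, and further members were named with their values. Members, classes and lists were chosen with earlier results of these data known. Repeated sequence is the share of exonic 31-mers found elsewhere in the genome, and genes with over 10% repeated or shared exons are given with that share as uncertain. Sequences are from GENCODE M21 coordinates read in the RefSeq GRCm38 assembly. Binomial intervals cover counting error only, and limma intervals rest on the spread between libraries. Python 3.11.15 was used for tables and figures. Values of 1 member counted among the 81 are not reported here.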

Additional observations from a re-analysis of the deposited data

How the results depend on the processing

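In METTL3-RIP against input, all 81 members kept their call under both pseudocounts (0.1 and 5), voom and each left-out library (81 to 81). With genes of a mean of at least 1 RPKM only, all 77 members that remained were called. Centring each library changes the question, and then 62 were above and 6 below. The calls of relative enrichment depended on the pseudocount. In place of 30 members called (27 above and 3 below), a pseudocount of 1 called 68 (62 above and 6 below, beside 1044 and 1119 of the table), and one of 0.02 called 14 (9 above and 5 below, beside 141 and 128 of the table). A pseudocount lowers the log2 difference most in genes with low input, and median input was 0.703 RPKM in members against 0.190 RPKM in the table. On simulated reads, the limma fit of relative enrichment called genes by level, more than voom did. How much of the calls in these data goes with level was not tested. With each library left out in turn, 21 to 34 members were called, 19 to 30 above and 2 to 4 below. Over all listed genes, these fits called 161 to 307 above and 351 to 478 below. Of the 22 members above in both fits, 19 were above in limma in every leave-one-out fit, all but Brd1, Chd8 and Kmt2b, and 9 with a pseudocount of 0.02, namely Baz2a, Chd7, Kdm6b, Kmt2a, Kmt2d, Med13l, Phf2, Tet3 and Trrap. Mean centring and centring on genes with at least 50 input reads, the latter chosen after seeing the data, called 35 above and 2 below (395 and 378 over all listed genes) and 30 above and 3 below (299 and 531), and the filter at 1 RPKM called 22 above and 4 below (158 and 51 of 1671 genes).

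Some genes changed the sign of the relative log2 enrichment. With a pseudocount of 1 it was 0.091 for Arid3a, 0.12 for Brpf3, 0.012 for Chd9 and 0.58 for Phf1 (adjusted p = 0.016), and with 0.02 it was -0.19 for Arid5a, -0.11 for Chd4, -0.061 for Kat6a and -0.0099 for Kdm3b. Arid5a was at -0.034 with the filter and at -0.031 in voom. The calls of Kat6a, Smarca4 and Med25 were lost in several settings. For Kat6a the adjusted p ranged up to 0.63, for Smarca4 up to 0.38 and for Med25 up to 0.18. Of 325 alternative values for single genes, 271 kept direction and side of the threshold, 25 lost the call, 19 gained it and 10 changed sign.

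As a summary of level, the median over members was 10.2 RPKM in place of a mean of 16.7. The listed share was 59.0% in the longest length class in place of 38.4%, and the median length was 10730 nt by union of exons in place of 7446 nt by longest transcript.

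Same-numbered METTL3-RIP and input libraries showed no shared deviation in the listed genes (correlations of -0.019, -0.019 and 0.078). Whether they came from the same lysate is not stated by the labels, and they were not treated as pairs. With the replicate block, all 81 members were called against input (2643 of 2652 in the table), and 26 in relative enrichment, 24 above and 2 below (236 and 407 in the table). With the block, 21 of the 22 members above in both fits remained above in limma.

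Input depth limits the members with low values. Under 50 input reads were found in 6 of the 81, and the fits differ most there.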

Other observations

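Genes of the same complexes outside the name pattern were described from a list of 120 partner genes chosen from general knowledge. Of these, 19 (15.8%) were in the table, beside 8.67% of all protein-coding genes. These 19 had a median ratio of METTL3-RIP to input of 11.7. Dot1l, the H3K79 methyltransferase, had 9.87, 10.6 and 7.44 RPKM in METTL3-RIP and 0.453, 0.359 and 0.297 RPKM in input. It was the only partner above the median in both fits, with a ratio of 25.2 and a relative log2 enrichment of 0.88 (SE 0.14, limma adjusted p = 0.0050). Hcfc1, a subunit shared by the KMT2 and SETD1 complexes, was above in limma (0.56, adjusted p = 0.031), with a voom adjusted p of 0.099, and Jmjd1c, a demethylase of the Kdm3 family, was above in limma (0.48, adjusted p = 0.036), with a voom adjusted p of 0.16. In all, limma called 3 partners above and 3 below, and voom called 1 above and 1 below, beside 11.2% above and 19.9% below in limma and 9.85% and 2.64% in voom over the table. The 120 genes of the partner list, in the table or not, had a median exonic length of 5240 nt.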
